A study of Mus musculus with 35 samples.

Results

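The 10 genes described here mark the core and the primed pluripotent states: *Pou5f1*, *Sox2*, *Sall4*, *Lin28a*, *Utf1*, *Tdgf1*, *Fgf5*, *Otx2*, *Pou3f1* and *Zic2*. They were taken by symbol from a fixed list of names, and all 10 were found among the 17948 genes of the day 3 experiment, the 18091 genes of the Dnmt1 experiment and the 17705 genes of the Tet3-CD experiment. RNA was sequenced from pools of mouse embryonic stem cells (ESCs) that had been driven towards neuroectoderm (NE) by removing LIF and adding 1 µM retinoic acid (RA), for 72 h by the labels. The question was how these genes stood after that treatment in cells with different *Tet3* alleles, and after a vector for Dnmt1 or for the TET3 catalytic domain (Tet3-CD) had been added.

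All lines descend from male ESCs of a mixed 129 and B6 background grown on feeder cells, which by the methods were to be removed by pre-plating before differentiation. The labels give every group the same –LIF + RA treatment, but the methods place collection of the Tet3-CD samples later than 72 h, so the time of those samples is uncertain. *Tet3*+/+ (wild type) cells carry the unedited gene, *Tet3* m/m (mutant) cells carry amino acid substitutions in the iron-binding site that the enzyme needs for catalysis, and *Tet3*-/- (knockout) cells lack an exon of *Tet3*. The day 3 experiment has 3 *Tet3*+/+, 3 *Tet3* m/m and 2 *Tet3*-/- samples, which the study describes as independent clones. In the Dnmt1 experiment, cells of each genotype were given a myc-tagged Dnmt1 vector under the CAG promoter or the matching empty vector and were selected with blasticidin, with 2 samples for each genotype and vector. In the Tet3-CD experiment they were given HA-tagged Tet3-CD or an empty vector, with 1 sample for each genotype and vector. The clones behind the transfected samples are not given in the sources used here, so p-values in the Dnmt1 experiment measure the spread between these samples, which may be technical. With few edited clones for each genotype, an effect of the allele and a difference between clones cannot be told apart.

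Pluripotent cells keep their identity through a small circuit of transcription factors in which POU5F1 (OCT4) and SOX2 bind DNA as partners. On leaving the naive state they pass through a primed, epiblast-like state in which OTX2 and POU3F1 (OCT6) redirect POU5F1 to new enhancers and *Fgf5* is switched on, and RA then represses *Pou5f1* as neural genes are activated. Some of the 10 genes outlast pluripotency, since *Sox2*, *Zic2*, *Otx2* and *Pou3f1* are also used by neural progenitors and *Lin28a* is high in early embryonic tissue generally.

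Values are normalised read counts, that is, the reads of a gene divided by a factor for the depth of its sample. The reads behind them could be recovered and ranged per sample from 36594650 to 47710548 (day 3), from 31155842 to 50845950 (Dnmt1 vector and its control) and from 33475041 to 37707719 (Tet3-CD and its control). Replicates were closer to each other in the Dnmt1 experiment than on day 3. The typical squared difference between 2 samples of a group was 3.08 to 5.52 times counting noise in the Dnmt1 experiment and 8.26 to 21.0 times on day 3, so no pair looked like 1 library deposited in duplicate.

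*Tet3* itself, read first as a check of the labels, was at 4613, 4576 and 5020 normalised counts in the day 3 wild-type samples, at 2666, 2277 and 1945 in the mutant and at 1796 and 2329 in the knockout. With the empty vector of the Dnmt1 experiment it was at 2957 and 3075 in the wild type, at 1125 and 963.7 in the mutant and at 2520 and 2571 in the knockout. With the Dnmt1 vector it was at 3514 and 3516, at 1173 and 1369, and at 2632 and 2390 in the same order of genotypes. The knockout values therefore lay near the mutant values on day 3 and nearer to the wild type in the Dnmt1 experiment, and a sum over all exons resolves neither the substitutions nor the missing exon. In the Tet3-CD experiment *Tet3* went from 4755 with the empty vector to 5441 with Tet3-CD in the wild type, from 1850 to 5232 in the mutant and from 2070 to 2759 in the knockout. *Dnmt1*, looked at after its values were seen, was at 11285 to 17554 normalised counts in the 6 empty vector samples of its experiment and at 20245 to 39854 in the 6 samples with the Dnmt1 vector, higher in each genotype. Its mean went from 14952 to 23284 in the wild type, from 11609 to 21728 in the mutant and from 17455 to 36617 in the knockout. The knockout thus had the most *Dnmt1* with either vector.

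To set the genes beside each other, normalised counts were divided by the exon length of each gene in kb. In the empty vector wild-type samples *Lin28a*, which codes for an RNA-binding protein that blocks let-7 processing, stood highest of the 10, at a mean of 4230 per kb. *Utf1* was at 3140, *Sox2* at 2990, *Pou5f1* at 2140 and *Sall4* at 1700 per kb, at percentiles 97.0, 96.8, 95.1 and 93.4 of all genes with a known length. *Tdgf1* followed at 788, *Zic2* at 347, *Pou3f1* at 125, *Fgf5* at 58.2 and *Otx2* at 14.6 per kb, beside a median of 151 over all genes. In these samples the primed genes other than *Zic2* thus lay below the typical gene while the core genes lay far above it. On day 3 the wild-type order again began with *Lin28a*, at 2580 per kb, and ended with *Otx2*, at 1.64 per kb. There the core gene *Tdgf1*, at 129 per kb, lay below the median of 160 over all genes, and *Pou5f1* was at 430 per kb.

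**Figure D1:**
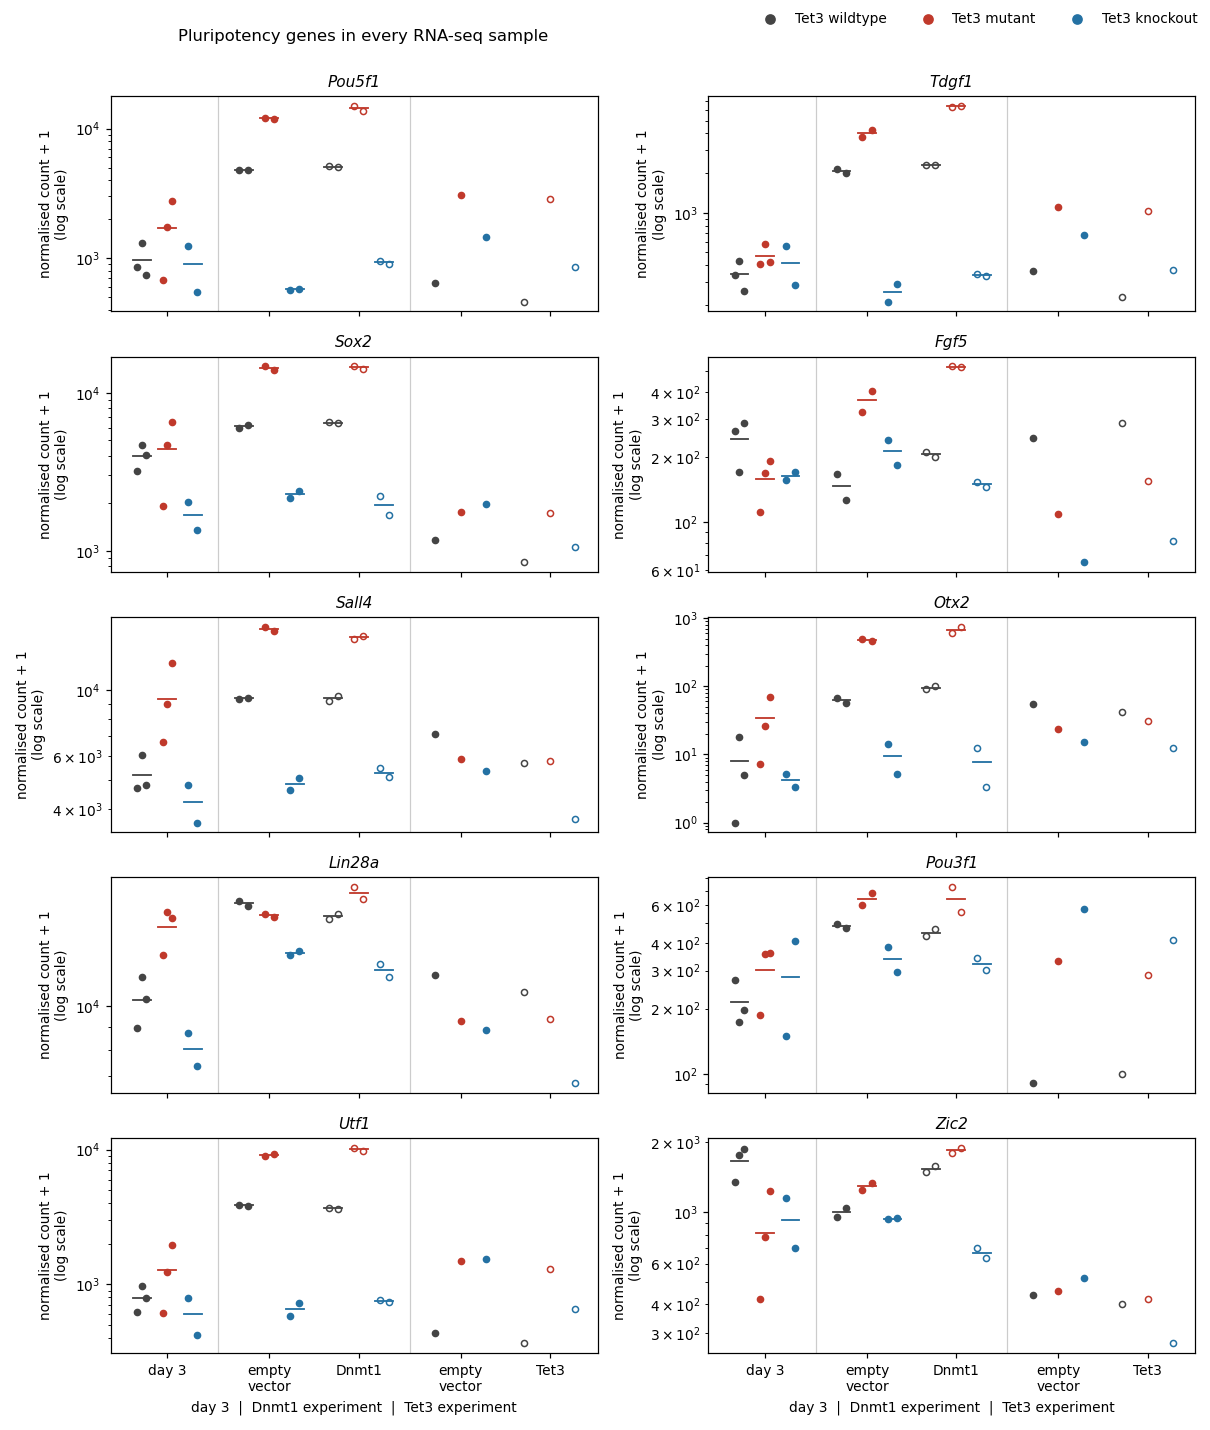
Normalised counts plus 1 (vertical axes, log scale) of the 10 genes in each RNA-seq sample, grouped by experiment and vector along the horizontal axis and coloured by *Tet3* genotype; filled points are day 3 or empty vector samples, open points have the Dnmt1 or Tet3 vector, and bars are means of groups with more than 1 sample. In the Dnmt1 experiment *Pou5f1* sits at 11920 to 14981 in mutant samples and at 566.8 to 947.1 in knockout samples, on either side of the wild type at 4780 to 5102.

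With the empty vector of the Dnmt1 experiment, most of the 10 genes were higher in the mutant and lower in the knockout than in wild-type cells. A gene was called when its limma adjusted p, over all genes with a mean value of at least 10, was under 0.05 and its fold change on the log2(value + 1) scale was over 1.5. All 10 genes passed the filter on low values in all 3 experiments. In the mutant against the wild type 7 of the 10 were called, 7 higher and 0 lower, where 21.2% of the 18055 genes tested were called in either direction. The median log2 fold change of the 10 was 1.09, beside 0.01 over all genes. In the knockout against the wild type 6 of the 10 were called, 0 higher and 6 lower, with 24.9% of all genes called. There the median was -1.19, beside 0.00 over all genes. Both comparisons share their wild-type samples. In a pool of cells, fewer pluripotent cells and less RNA of these genes in each cell cannot be told apart.

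*Pou5f1*, the central POU factor of the circuit, was at 4780 and 4831 normalised counts in the wild type, at 12155 and 11920 in the mutant and at 566.8 and 576.6 in the knockout. The 3 genotypes did not overlap, and the replicates of each differed by little. With 2 samples a group, 72.3% of all genes lay apart from the wild type in the mutant and 77.1% in the knockout. *Pou5f1* rose by a log2 fold change of 1.33 in the mutant (SE 0.05, limma adjusted p = 1.28e-14), to 2.50 times the wild-type level. In the knockout it fell by 3.07 on the log2 scale (SE 0.05, limma adjusted p = 2.09e-20), which put the wild type 8.39 times above the knockout.

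*Sox2*, the partner of *Pou5f1* on DNA and also a neural progenitor factor, was at 5990 and 6301 normalised counts in the wild type, at 14731 and 14051 in the mutant and at 2170 and 2379 in the knockout. Each genotype again kept to its own range. The log2 fold change was 1.23 in the mutant (SE 0.08, limma adjusted p = 4.26e-11) and -1.44 in the knockout (SE 0.08, limma adjusted p = 4.78e-12). *Sall4*, a zinc finger protein that acts with both factors, was at 9341 and 9431, at 16237 and 15709, and at 4652 and 5088 in the same order. It changed less than *Sox2* in both directions, with log2 fold changes of 0.77 (SE 0.05, limma adjusted p = 2.55e-11) and -0.95 (SE 0.05, limma adjusted p = 1.13e-12).

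*Utf1*, a chromatin-bound factor and direct target of POU5F1 and SOX2, was at 3866 and 3836 normalised counts in the wild type, at 9020 and 9318 in the mutant and at 585.4 and 725.8 in the knockout. It had log2 fold changes of 1.25 (SE 0.07, limma adjusted p = 4.48e-12) and -2.56 (SE 0.07, limma adjusted p = 7.03e-17). *Tdgf1* (Cripto), a co-receptor for Nodal at the cell surface, was at 2141 and 1992, at 3784 and 4276, and at 210.3 and 284.6. Its fall in the knockout, -3.07 on the log2 scale (SE 0.10, limma adjusted p = 4.82e-16), was as large as that of *Pou5f1*. Its rise in the mutant was 0.96 (SE 0.10, limma adjusted p = 4.23e-08). The annotation names 2 pseudogenes of *Tdgf1*, and reads that fit both the gene and a pseudogene may have been lost or shared, so its level is uncertain.

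*Lin28a* behaved unlike the other core genes. It was at 17124 and 16677 normalised counts in the wild type, at 15958 and 15788 in the mutant and at 12966 and 13231 in the knockout. Its log2 fold change was -0.09 in the mutant (SE 0.04, limma adjusted p = 0.102). In the knockout it was -0.37 (SE 0.04, limma adjusted p = 4.47e-07), past the p threshold but short of the fold threshold.

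Among the primed genes, *Otx2*, a homeodomain factor of the epiblast and later of the anterior brain, moved most. It was at 67.17 and 55.66 normalised counts in the wild type, at 487.1 and 463.6 in the mutant and at 12.99 and 4.232 in the knockout. It rose by 2.94 on the log2 scale in the mutant (SE 0.45, limma adjusted p = 1.27e-05) and had a log2 fold change of -2.86 in the knockout (SE 0.45, limma adjusted p = 1.59e-05). With a sample left out, the knockout value ranged from -3.57 to -2.15. *Fgf5*, a growth factor that marks the primed epiblast, did not follow that order. It was at 166.0 and 125.2 in the wild type, at 323.5 and 405.0 in the mutant and at 239.5 and 183.0 in the knockout, so that both edited genotypes lay above the wild type. Its log2 fold change was 1.32 in the mutant (SE 0.17, limma adjusted p = 1.44e-06). In the knockout it was 0.54 (SE 0.17, limma adjusted p = 0.0121), short of the fold threshold.

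*Pou3f1*, the POU factor of the primed state, and *Zic2*, a zinc finger factor of epiblast and neural plate, differed least of the 4 primed genes. *Pou3f1* was at 490.0 and 472.0 normalised counts in the wild type, at 599.5 and 679.8 in the mutant and at 385.7 and 294.1 in the knockout. *Zic2* was at 954.3 and 1042, at 1248 and 1334, and at 929.7 and 943.7. Neither gene was called against the wild type in either genotype. The groups did not overlap, as for 72.3% of all genes in the mutant and 77.1% in the knockout. *Pou3f1* passed the p threshold in both genotypes (limma adjusted p = 0.0203 in the mutant and 0.00378 in the knockout) and *Zic2* in the mutant (limma adjusted p = 0.000465), and they missed the fold threshold. With no fold threshold 9 of the 10 genes were called in the mutant and 9 in the knockout, beside 8230 and 9612 of the 18055 genes. Without replicate 1 of the knockout, *Pou3f1* was called in the knockout at a log2 fold change of -0.71 (limma adjusted p = 0.00104), which brought the count to 7. *Fgf5* was called higher in the knockout without the first empty vector wild-type sample, at 0.74 (limma adjusted p = 0.00506), or without replicate 2 of the knockout, at 0.73 (limma adjusted p = 0.0055).

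The edited genotypes stood further from each other than from the wild type in 8 of the 10 genes, all but *Lin28a* and *Fgf5*. In the knockout against the mutant 8 of the 10 genes were called, 0 higher and 8 lower, where 39.6% of all genes were called. The median log2 fold change was -2.19, beside -0.01 over all genes. The genes not called were *Lin28a*, at -0.28 (SE 0.04, limma adjusted p = 1.07e-05), and *Zic2*, at -0.46 (SE 0.08, limma adjusted p = 2.28e-05), both below the fold threshold. *Pou5f1* had a log2 fold change of -4.39 there (SE 0.05, limma adjusted p = 1.47e-23). These values are measured on the same empty vector samples as the comparisons with the wild type.

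**Figure D2:**
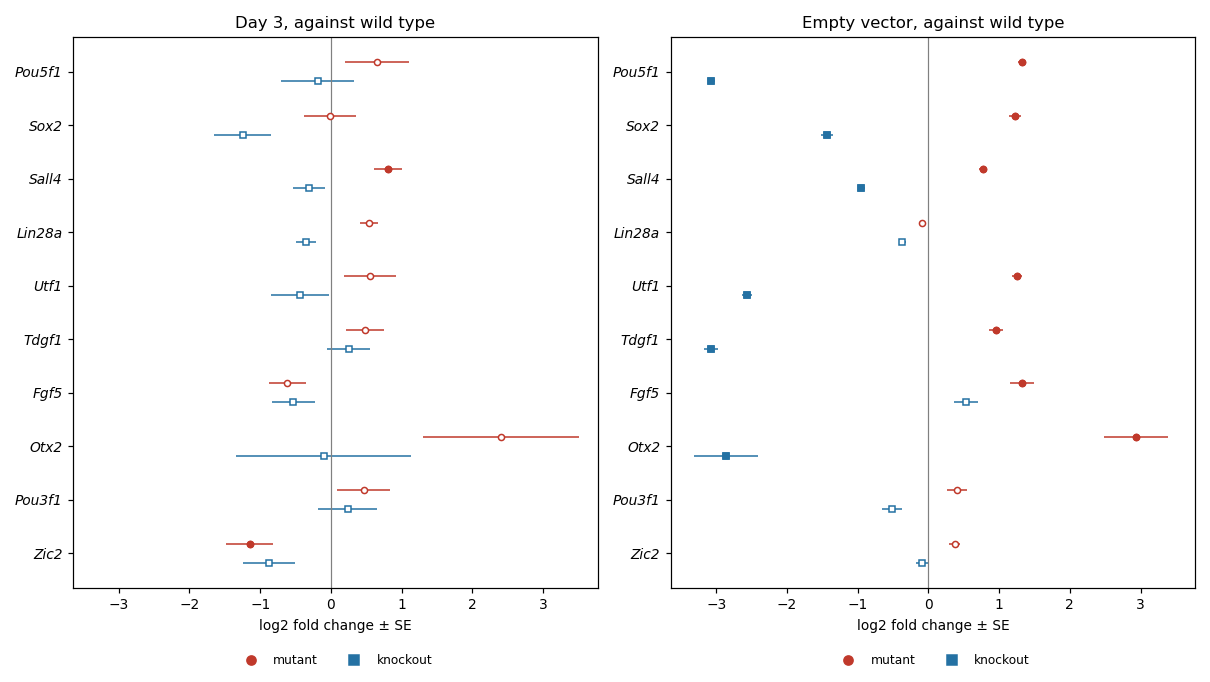
Log2 fold change (horizontal axes, with SE as bars) of each gene in *Tet3* m/m (circles) and *Tet3*-/- (squares) against *Tet3*+/+, on day 3 (left) and with the empty vector of the Dnmt1 experiment (right); filled symbols were called by limma. The errors are wider on day 3, where 2 genes were called in the mutant and 0 in the knockout, beside 7 and 6 with the empty vector.

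On day 3, without transfection, wild-type and mutant samples were spread more widely than with the empty vector, as the ratio of highest to lowest value. This held for each of the 10 genes that had a ratio, over 3 samples a group in place of 2. *Otx2* had none in the wild type, where its lowest value was 0. In the knockout the same was seen except for *Fgf5* and *Otx2*. In the mutant against the wild type 2 of the 10 were called, 1 higher and 1 lower, beside 10.2% of the 17915 genes tested. The median log2 fold change was 0.51, beside 0.00 over all genes. *Sall4* was at 4723, 6071 and 4808 normalised counts in the wild type and at 6685, 8973 and 12272 in the mutant. All mutant clones lay above all wild-type clones, with a log2 fold change of 0.81 (SE 0.20, limma adjusted p = 0.0231). *Zic2* was at 1347, 1756 and 1876 in the wild type and at 420.0, 781.5 and 1237 in the mutant. It lay lower in all 3 mutant clones, at -1.15 (SE 0.33, limma adjusted p = 0.0423). *Lin28a* was at 8930, 11627 and 10379 in the wild type and at 13009, 16180 and 15677 in the mutant, with no overlap and a log2 fold change of 0.54 (SE 0.12, limma adjusted p = 0.0162) that missed the fold threshold.

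Both calls depend on which clones are included. Most losses were by adjusted p, at log2 fold changes of 0.74 to 0.81 for *Sall4* and of -1.29 to -1.05 for *Zic2*. Without mutant replicate 1 the log2 fold change of *Zic2* was -0.74. The call of *Sall4* was lost without wild-type replicate 1 (limma adjusted p = 0.087) or 3 (limma adjusted p = 0.0867), without mutant replicate 2 (limma adjusted p = 0.067), and by its fold without mutant replicate 3, at a log2 fold change of 0.58. That of *Zic2* was lost without any of wild-type replicates 1, 2 and 3 and without mutant replicates 1 and 2, with limma adjusted p from 0.0681 to 0.139, and the count of called genes then ranged from 0 to 2. *Lin28a* was called higher without wild-type replicate 2, at 0.63 (limma adjusted p = 0.0208), or without mutant replicate 1 (limma adjusted p = 0.00849), and in each case took the place of *Zic2* beside *Sall4*. *Zic2* was also not called on the recovered reads by edgeR (adjusted p = 0.0574) or DESeq2 (adjusted p = 0.0791), which left a count of 1.

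The mutant clones differed from each other in a shared way. *Pou5f1* was at 671.9, 1733 and 2743 normalised counts in mutant replicates 1, 2 and 3, and at 847.1, 1309 and 741.3 in the wild type. *Sox2* was at 1923, 4695 and 6551 in the same mutant samples, and at 3203, 4693 and 4041 in the wild type. *Utf1* was at 616.6, 1239 and 1963, and at 626.4, 967.6 and 790.7. In each of these genes replicate 1 of the mutant lay below the whole wild-type group and replicate 3 above it, so the groups overlapped and none was called. *Otx2* was at 6.146, 25.29 and 69.24 in the mutant clones, and at 0, 16.81 and 3.954 in the wild type. Its log2 fold change of 2.41 had an SE of 1.11 (limma adjusted p = 0.181) and ranged from 1.33 to 3.41 with a sample left out. The mean of *Otx2* was 33.6 in the mutant, 6.92 in the wild type and 3.26 in the knockout. It thus passed the filter on low values only through the mutant, and its difference is given as a description only.

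Mutant and wild-type clones overlapped in the remaining genes. *Tdgf1* was at 335.4, 427.8 and 253.0 normalised counts in the wild type and at 407.7, 575.8 and 423.6 in the mutant. *Pou3f1* was at 268.9, 172.8 and 196.7, and at 186.4, 357.5 and 360.5. Of its mutant clones 1 lay within the wild-type range and 2 above it, and its difference on the log2 scale was 0.46 (SE 0.38, limma adjusted p = 0.459). *Fgf5* was at 264.1, 170.0 and 286.6, and at 110.6, 167.8 and 191.4. In contrast to the empty vector samples its mean was lower in the mutant, at a log2 fold change of -0.62 (SE 0.27, limma adjusted p = 0.159).

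In day 3 knockout cells 0 of the 10 genes were called by limma against the wild type, and also 0 by edgeR and 0 by DESeq2 on the recovered reads. Of all genes 0.642% were called by limma, 0.48% by edgeR and 5.12% by DESeq2. An unadjusted limma p under 0.05 was found for 3 of the 10 and for 20.1% of all genes. The largest difference was in *Sox2*, at 2032 and 1350 normalised counts in the knockout, below all wild-type samples. Its change on the log2 scale was -1.25 (SE 0.41, limma adjusted p = 0.128). It was called with only the compared groups in the fit (limma adjusted p = 0.0177) or without mutant replicate 1 (limma adjusted p = 0.0174), each of which gives a count of 1. With only the compared groups 664 of 17533 genes were called, beside 115 of 17915 in the main fit. *Pou5f1* was at 1250 and 543.1 in the 2 knockout clones, on either side of the wild-type mean of 965.6. *Utf1* was at 784.7 and 423.5, *Tdgf1* at 554.6 and 281.2 and *Pou3f1* at 148.5 and 408.7, so that clone 1 was higher in the core genes and clone 2 in *Pou3f1*. *Zic2* was at 1146 and 702.5 and *Fgf5* at 155.9 and 168.5, in both cases below the wild-type group. *Otx2* was at 4.242 and 2.277.

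Between the edited genotypes on day 3, 2 of the 10 genes were called, 0 higher and 2 lower in the knockout, beside 9.73% of all genes. *Sall4*, at 4822 and 3611 normalised counts in the knockout, had a log2 fold change of -1.11 against the mutant (SE 0.22, limma adjusted p = 0.0103). *Lin28a*, at 8717 and 7390, had one of -0.89 (SE 0.14, limma adjusted p = 0.00318). Both genes were lower in each knockout clone than in any mutant clone. Without mutant replicate 1, the clone with the low core genes, 5 genes were called, with *Pou5f1* at -1.40 (limma adjusted p = 0.0346), *Sox2* at -1.74 (limma adjusted p = 0.00166) and *Utf1* at -1.43 (limma adjusted p = 0.0146) added. Without knockout replicate 2 the count was 1, since *Sall4* was lost (limma adjusted p = 0.0757). On the recovered reads edgeR called 3, with *Sox2* added (adjusted p = 0.0496).

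The wild-type levels of the 2 experiments were not the same. *Pou5f1* averaged 965.6 ± 301.6 (SD, n = 3) normalised counts in day 3 wild-type cells and 4806 ± 35.8 (SD, n = 2) in wild-type cells with the empty vector. *Utf1* averaged 794.9 ± 170.6 and 3851 ± 21.6, and *Tdgf1* 338.7 ± 87.4 and 2066 ± 105.0. *Fgf5* went the other way, with 240.2 ± 61.9 and 145.6 ± 28.8. The tables were normalised separately and no test was made across them, so these means are set side by side only as levels, and whether the genotype effects differ between the experiments was not tested.

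The Dnmt1 vector was compared with the empty vector to ask whether more Dnmt1, the enzyme that copies DNA methylation to new strands, moved these genes in each genotype. It moved few of them past the thresholds. In the wild type 1 of the 10 was called, 1 higher and 0 lower, beside 1.17% of all genes. In the mutant 1 of the 10 was called, 1 higher and 0 lower, beside 2.46% of all genes. In the knockout 1 of the 10 was called, 1 higher and 0 lower, beside 3.53% of all genes. A different gene was called in each genotype: *Zic2* in the wild type, *Tdgf1* in the mutant and *Pou5f1* in the knockout. Markers of other states moved in the same comparisons. Of 15 neural genes 4 were called higher and 0 lower in the wild type, and 5 and 0 in the mutant. In the knockout the neural counts were 1 and 1. Of 14 naive genes 7 were called higher and 0 lower in the knockout, and 0 in the other genotypes. Of 8 fibroblast genes 4 were called higher and 0 lower in the mutant, and 0 and 2 in the knockout. Their part in the 3 calls was not tested.

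*Zic2* in the wild type went from 954.3 and 1042 normalised counts with the empty vector to 1486 and 1584 with the Dnmt1 vector. The change on the log2 scale was 0.62 (SE 0.08, limma adjusted p = 7.64e-05), and it fell short of the fold threshold without the first of the empty vector samples, at 0.56, or without replicate 2 of the Dnmt1 samples, at 0.58. In the mutant it went from 1248 and 1334 to 1795 and 1898, a log2 fold change of 0.52 (SE 0.08, limma adjusted p = 0.000119) that is just short of that threshold. In the knockout it went the other way, from 929.7 and 943.7 to 696.3 and 631.9, at -0.50 (SE 0.08, limma adjusted p = 0.000175). The difference between the Dnmt1 effect in the knockout and that in the wild type was tested as an interaction and came to -1.12 on the log2 scale (SE 0.11, limma adjusted p = 1.32e-06). For the mutant the same difference was -0.10 (SE 0.11, limma adjusted p = 0.81).

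*Pou5f1* in the knockout went from 566.8 and 576.6 to 947.1 and 902.0 normalised counts with the Dnmt1 vector. That is a log2 fold change of 0.69 (SE 0.05, limma adjusted p = 3.92e-08), and it left the gene far below the wild-type level of 5102 and 5083 with the same vector. In the wild type its log2 fold change with the Dnmt1 vector was 0.08 (SE 0.05, limma adjusted p = 0.419), and in the mutant, where it reached 14981 and 13626, it was 0.25 (SE 0.05, limma adjusted p = 0.0041). The interaction was 0.61 in the knockout against the wild type (SE 0.08, limma adjusted p = 2.20e-05), and fell below the fold threshold without Dnmt1 vector replicate 1 of the knockout, at 0.57. Without that same sample the interaction of *Otx2* was called, at -1.95 (limma adjusted p = 0.011).

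*Tdgf1* in the mutant went from 3784 and 4276 to 6383 and 6482 normalised counts with the Dnmt1 vector, a log2 fold change of 0.68 (SE 0.10, limma adjusted p = 7.29e-05). In the knockout it went from 210.3 and 284.6 to 344.1 and 332.0, at 0.47 (SE 0.10, limma adjusted p = 0.00265), and in the wild type it stood at 2306 and 2296, at 0.16 (SE 0.10, limma adjusted p = 0.407). The gene was thus higher on average with the Dnmt1 vector in all 3 genotypes, and past both thresholds in 1. Without empty vector replicate 2 of the knockout, *Tdgf1* was also called in the knockout, at 0.68 (limma adjusted p = 6.88e-05), as was *Fgf5*, at -0.69 (limma adjusted p = 0.0443), for a count of 3. Without Dnmt1 vector replicate 1 of the knockout the count was 2, with *Otx2* added at -1.34 (limma adjusted p = 0.0203). The interaction for *Tdgf1* in the mutant was 0.52 (SE 0.14, limma adjusted p = 0.0713).

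*Fgf5* was higher with the Dnmt1 vector in the wild type, at 210.8 and 198.4 normalised counts, and in the mutant, at 524.7 and 521.5, and lower in the knockout, at 152.8 and 144.0. None of the 3 differences was called, with log2 fold changes of 0.50 (SE 0.17, limma adjusted p = 0.0926), 0.53 (SE 0.17, limma adjusted p = 0.0539) and -0.50 (SE 0.17, limma adjusted p = 0.0612). The difference between knockout and wild type was itself called, at -1.0 (SE 0.24, limma adjusted p = 0.0112). It was lost without the second empty vector wild-type sample (limma adjusted p = 0.0705), empty vector replicate 1 of the knockout (limma adjusted p = 0.0691) or Dnmt1 vector replicate 1 of the wild type (limma adjusted p = 0.0546). *Otx2* with the Dnmt1 vector was at 89.43 and 98.72 in the wild type, at 607.9 and 745.0 in the mutant and at 11.26 and 2.38 in the knockout. Its log2 fold changes against the empty vector were 0.61 (SE 0.45, limma adjusted p = 0.49), 0.50 (SE 0.45, limma adjusted p = 0.562) and -0.41 (SE 0.45, limma adjusted p = 0.625), none of them called.

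Counted over the 10 genes, the interaction of the knockout with the vector called 3, 1 higher and 2 lower, beside 3.99% of all genes. Of 15 neural genes that interaction called 0 higher and 5 lower (median log2 difference -0.61). With the Dnmt1 vector mean *Dnmt1* was 36617 normalised counts in the knockout and 23284 in the wild type. The part of this difference in the knockout interactions was not tested. The interaction of the mutant called 0 of 10 by limma, and also 0 by edgeR and 0 by DESeq2, beside 0.604% of all genes by limma, with 3 at an unadjusted limma p under 0.05, beside 10.9% of all genes. *Lin28a* passed the p threshold there at a log2 difference of 0.26 (SE 0.06, limma adjusted p = 0.0367), below the fold threshold. It was at 15599 and 16028 normalised counts with the Dnmt1 vector in the wild type and at 18329 and 17281 in the mutant. *Sox2*, *Sall4*, *Utf1* and *Pou3f1* were called in none of the vector comparisons. Their log2 fold changes with the Dnmt1 vector lay between -0.23 (*Sox2* in the knockout) and 0.20 (*Utf1* in the knockout). The genotype order of each core gene other than *Lin28a* was the same with either vector, with the mutant highest and the knockout lowest.

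**Figure D3:**
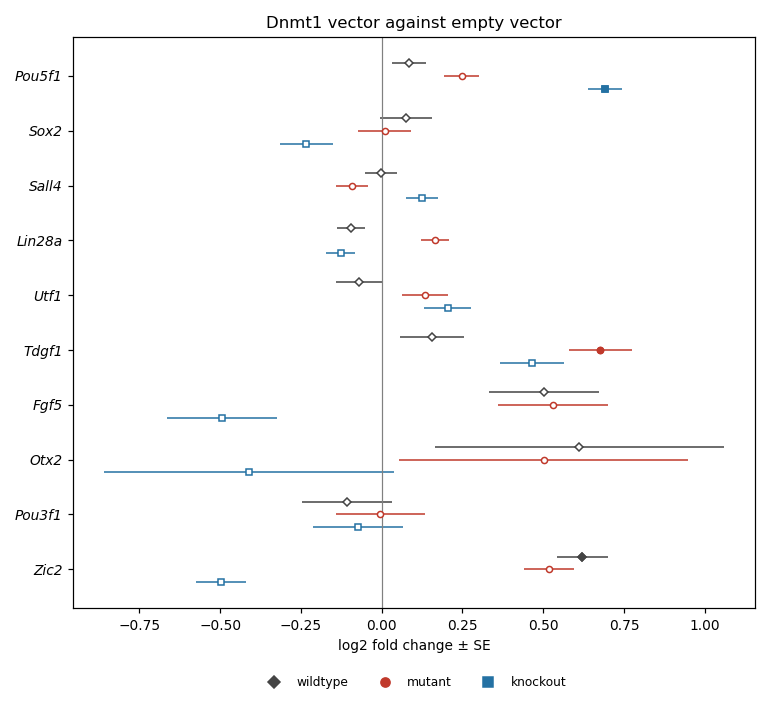
Log2 fold change (horizontal axis, with SE as bars) of each gene with the Dnmt1 vector against the empty vector, in *Tet3*+/+ (diamonds), *Tet3* m/m (circles) and *Tet3*-/- (squares); filled symbols were called by limma. *Zic2* lies at 0.62 and 0.52 in wild type and mutant and at -0.50 in the knockout, while *Pou5f1* is highest in the knockout, at 0.69.

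In the Tet3-CD experiment each group is 1 sample, so values are given without a test and have no replicate check. With its empty vector, *Pou5f1* was at 642.0 normalised counts in the wild type, 3060 in the mutant and 1462 in the knockout. *Utf1* was at 436.9, 1490 and 1535, and *Tdgf1* at 361.1, 1113 and 680.6. *Pou3f1* was at 89.74, 331.4 and 574.3, and *Sox2* at 1175, 1767 and 1963. In these 5 genes the knockout sample lay above the wild-type sample, the reverse of the empty vector samples of the Dnmt1 experiment. *Fgf5*, at 244.6, 108.0 and 64.15, and *Otx2*, at 53.41, 22.34 and 14.03, were lower in both edited genotypes. For *Fgf5*, and for *Otx2* in the mutant, this is again the reverse of the Dnmt1 experiment. *Sall4* (7147, 5879 and 5352), *Lin28a* (11705, 9282 and 8854) and *Zic2* (439.1, 455.3 and 519.2) stayed within the fold threshold. Past 1.5-fold were 7 of the 10 genes in the mutant, 5 higher and 2 lower, beside 36.3% of the 17481 genes with a mean of at least 10, and 7 in the knockout, 5 higher and 2 lower, beside 27.1% of them. The wild-type sample also stood apart by its endoderm markers, of which 16 of 16 were lower past 1.5-fold in the mutant (median log2 difference -2.30) and 16 of 16 in the knockout (median -2.03). The part of such cells in the levels of the 10 genes was not tested.

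Adding Tet3-CD was followed by small differences in these genes outside the knockout. In the mutant 0 of the 10 genes were past 1.5-fold, beside 10.1% of all genes, with *Pou5f1* at 2845 normalised counts. In the wild type 1 was, beside 13.4% of all genes. It was *Tdgf1*, at 230.2 with Tet3-CD. In the knockout 5 were, 0 higher and 5 lower, beside 21.5% of all genes. They were *Utf1* at 655.8, *Pou5f1* at 856.1, *Sox2* at 1059, *Tdgf1* at 367.6 and *Zic2* at 270.2. The log2 differences of these 5 ran from -1.23 for *Utf1* to -0.77 for *Pou5f1*, and the median of the 10 genes was -0.65, beside -0.02 over all genes. Lists of other genes were also lower past 1.5-fold there, with 12 of 16 endoderm, 8 of 15 neural and 9 of 14 naive genes lower and 0, 1 and 0 higher, so the difference was not limited to the 10 genes. *Tet3* itself rose less in the knockout, from 2070 to 2759 normalised counts, than in the mutant, from 1850 to 5232. Whether the differences in the knockout came from the vector was not tested.

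Genes that work with the 10 were followed as lists. The core network list holds 22 genes of the POU5F1 and SOX2 circuit. With the empty vector 21.2% of all genes were called in the mutant and 24.9% in the knockout, the shares to set beside the counts of both network lists there. With the empty vector of the Dnmt1 experiment 13 of them were called higher and 1 lower in the mutant (median log2 fold change 0.68), with *Nr0b1* at 1.67, *Esrrb* at 1.59 and *Nanog* at 1.45. In the knockout 0 were called higher and 17 lower (median -1.93), with *Fgf4* at -3.84, *Nr0b1* at -3.34 and *Nanog* at -3.27. On day 3 the same list had 6 called higher and 1 lower in the mutant, beside 10.2% of all genes, and 0 higher and 1 lower in the knockout, beside 0.642%. The Dnmt1 vector in the knockout was accompanied by 8 called higher and 1 lower, where 3.53% of all genes were called, among them *Nanog* at 1.03, beside *Pou5f1* at 0.69. In the wild type and in the mutant 0 of the 22 were called with that vector, beside 1.17% and 2.46% of all genes. The primed network list of 18 genes, such as *Dnmt3b* and the Nodal pathway genes, had 10 called higher and 4 lower in the mutant with the empty vector (median 0.88), and 2 higher and 11 lower in the knockout (median -0.86), where *Lefty2* was at -3.54 and *Lefty1* at -3.01.

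Markers of other states were counted in the same samples, where 21.2% of all genes were called in the mutant and 24.9% in the knockout. Of 14 naive pluripotency genes, 5 of which are also in the core network list, 13 were called higher and 1 lower in empty vector mutant cells, and 0 higher and 12 lower in the knockout. Of 16 endoderm genes 15 were called higher and 0 lower in the mutant, and 1 higher and 13 lower in the knockout. Of 15 neural genes 3 were called higher and 8 lower in the mutant, and 7 higher and 2 lower in the knockout. On day 3, with 10.2% of all genes called in the mutant and 0.642% in the knockout, the naive list had 0 of 14 called in the mutant, though 13 had a log2 fold change above zero (median 0.59), and 0 in the knockout, and the endoderm list 4 higher and 0 lower in the mutant and 0 in the knockout. There the neural list had 0 called higher and 11 lower in the mutant, and 1 higher and 2 lower in the knockout (median log2 fold change -0.88), where the median of the core genes was also below zero, at -0.33. With the empty vector, of the 10 mesoderm genes measured, 4 were called higher and 2 lower in the mutant, and 1 higher and 2 lower in the knockout.

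The ESCs had been grown on feeder fibroblasts, and 8 of 9 fibroblast markers were measured in the Dnmt1 experiment. Their summed normalised counts were 20644 and 18795 in empty vector wild-type samples, 3789 and 4080 in the mutant and 38222 and 38124 in the knockout, the reverse order of the core genes other than *Lin28a*. With the Dnmt1 vector the sums were 20292 and 19104, 5469 and 5566, and 35930 and 46518. *Col1a1*, the most abundant of them, was at 8321 and 7499, at 1346 and 1498, and at 19077 and 19225 with the empty vector, and none of the markers was at 0. Of the 8, 1 was called higher and 5 lower in the mutant, beside 21.2% of all genes, and 4 higher and 1 lower in the knockout, beside 24.9%. On day 3 the sums were 29439, 18576 and 21902 in the wild type, 22355, 16524 and 11994 in the mutant and 44415 and 49354 in the knockout. Gene by gene, 4 of the 8 were higher and 4 lower in the day 3 mutant (median log2 fold change -0.12). There 1 was called higher and 0 lower, beside 10.2% of all genes. In the day 3 knockout all 8 were higher (median 0.60) and 0 were called, beside 0.642% of all genes. Collagen genes are also made by cells that arise during differentiation, and the part of these cells in the levels of the 10 genes was not tested. In the Tet3-CD experiment the wild-type samples stood apart by their endoderm markers, which summed to 1105308 with the empty vector, beside 235644 in the mutant and 311530 in the knockout.

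The genes most like each of the 10 were found by Pearson's r of log2(value + 1) over the 12 samples of the Dnmt1 experiment, which fall into 3 genotypes, so that r mostly reflects the genotype means. *Pou5f1* was most like *Lefty2* (r = 0.999) and *Zfp978* (r = 0.998), with r = 0.77 and 0.72 over the 8 day 3 samples. *Sox2* was most like *Tcf15* (r = 0.998, and 0.81 on day 3), *Sall4* like *Nfatc2ip* (r = 0.999, and 0.82), and *Utf1* like *Zfp534* (r = 0.999, and 0.65). *Tdgf1* was most like *Pecam1* (r = 0.996, and 0.72) and *Otx2* like *Nod1* (r = 0.992, and 0.82) and the naive factor *Prdm14* (r = 0.992, and 0.78). *Lin28a* was most like the ribosomal protein gene *Rpl21* (r = 0.984, and 0.62 on day 3) and *Rpl36a* (r = 0.984, and 0.80), *Fgf5* like *Galnt16* (r = 0.966, and -0.05) and *Ubtf* (r = 0.966, and 0.48), *Pou3f1* like *Ndufb4* (r = 0.979, and 0.42) and *Zic2* like *Dek* (r = 0.981, and 0.60). Next for *Zic2* came *Asic2* (r = 0.977), with r = -0.06 on day 3.

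The 10 genes lie on 8 chromosomes: 2 (*Sall4*), 3 (*Sox2*), 4 (*Pou3f1* and *Lin28a*), 5 (*Fgf5*), 7 (*Utf1*), 9 (*Tdgf1*), 14 (*Otx2* and *Zic2*) and 17 (*Pou5f1*). In the Dnmt1 experiment the median log2 ratio of the genes of each of these chromosomes to the empty vector wild type was between -0.04 and 0.08. Other chromosomes ranged from -0.45 to 0.11 there, the lowest being chromosome 8 in the mutant. In the empty vector knockout samples chromosome 8 was at -0.355 and -0.37. On day 3 the chromosomes of the 10 genes ranged from -0.12 to 0.12 against the wild type and the others from -0.38 to 0.18, and chromosome 14 was lower in every edited clone, at -0.06 to -0.12. The day 3 knockout clones differed on chromosome 8, at 0.179 in replicate 1 and -0.309 in replicate 2. *Sox2* lies within *Sox2ot* on the same strand, so reads may be shared or lost between them. *Sall4* overlaps *Gm14261* on the opposite strand, where the same holds if counting ignored strand, which is not given in the sources used here. *Pou5f1*, *Lin28a*, *Pou3f1* and *Otx2* also overlap annotated genes, none of which is among the genes measured.

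Promoters of 7 of the 10 genes were found in the RefSeq table for GRCm38.p6, as 11 stretches of 300 bases from 250 before to 50 after a start. *Sall4*, *Pou3f1* and *Zic2* are named only. Since the Dnmt1 vector bears on CpG methylation, CpG sites were counted. The median was 11 a stretch for these genes and 7 over all 32851 promoters, with a GC share of 53.7% and 52.7%. *Fgf5* had 29 CpG sites, *Sox2* 27, *Utf1* 17, *Pou5f1* 11 at its upstream start and *Tdgf1* 7. The octamer ATGCAAAT, on either strand, was in 0 of the 11 stretches and in 1.74% of all promoters. The Sox motif ACAATG was in 2 of 11 (*Lin28a* and the downstream start of *Pou5f1*) and in 12.6% of all. The nuclear receptor element AGGTCA, which RA receptors bind in pairs, was in 2 of 11 (the upstream start of *Pou5f1*, and *Sox2*) and in 16.3% of all. A match is a description of the letters and not of a bound site.

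The promoters that follow belong to 4 core genes that were called higher in the mutant and lower in the knockout with the empty vector, namely *Pou5f1* (chr17:35505782-35506081, plus strand), *Sox2* (chr3:34649745-34650044, plus strand), *Utf1* (chr7:139943606-139943905, plus strand) and *Tdgf1* (chr9:110946109-110946408, minus strand), from RefSeq GRCm38.p6, 5′ to 3′ on the gene's strand with CpG sites in capitals.
Pou5f1: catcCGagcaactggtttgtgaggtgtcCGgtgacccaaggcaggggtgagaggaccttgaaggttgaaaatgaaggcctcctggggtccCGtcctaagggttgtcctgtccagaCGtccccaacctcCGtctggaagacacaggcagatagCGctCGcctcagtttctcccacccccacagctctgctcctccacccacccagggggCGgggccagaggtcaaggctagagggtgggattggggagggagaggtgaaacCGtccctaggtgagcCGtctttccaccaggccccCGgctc
Sox2: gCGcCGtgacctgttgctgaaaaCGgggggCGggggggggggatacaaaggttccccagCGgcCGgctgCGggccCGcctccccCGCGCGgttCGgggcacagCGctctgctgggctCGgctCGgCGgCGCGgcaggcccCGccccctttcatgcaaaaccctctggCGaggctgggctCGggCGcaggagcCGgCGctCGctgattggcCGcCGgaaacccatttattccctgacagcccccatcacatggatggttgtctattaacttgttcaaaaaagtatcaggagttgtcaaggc
Utf1: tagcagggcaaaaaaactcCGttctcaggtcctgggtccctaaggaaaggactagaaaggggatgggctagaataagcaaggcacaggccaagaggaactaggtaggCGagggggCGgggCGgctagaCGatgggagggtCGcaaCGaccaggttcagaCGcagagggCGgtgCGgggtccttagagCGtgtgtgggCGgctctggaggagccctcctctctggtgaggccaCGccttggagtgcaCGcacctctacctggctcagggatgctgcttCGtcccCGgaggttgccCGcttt
Tdgf1: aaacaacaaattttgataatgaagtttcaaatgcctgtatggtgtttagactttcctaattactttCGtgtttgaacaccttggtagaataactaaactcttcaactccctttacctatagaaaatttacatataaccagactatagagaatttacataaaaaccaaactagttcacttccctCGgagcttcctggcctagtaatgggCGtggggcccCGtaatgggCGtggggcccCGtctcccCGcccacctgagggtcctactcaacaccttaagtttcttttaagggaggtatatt
The CpG counts of these 4 stretches ran from 7 to 27.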

How the data were processed

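RNA was sequenced from 26 samples of mouse ESCs and their derivatives after –LIF + RA treatment, 8 of them untransfected day 3 clones, 12 with the Dnmt1 vector or its control and 6 with Tet3-CD or its control. The deposited signal values are counts per gene that the authors made by trimming with Trim Galore 0.6.7, aligning with STAR 2.7.9a, counting with featureCounts and dividing by DESeq2 size factors. All values of each sample were whole multiples of 1 step within 0.01, which gave back the reads, with a median of 41474674, 40736545 and 36694298 a sample in the 3 experiments. The Dnmt1 experiment has 2 columns under 1 heading, taken here as the 2 empty vector wild-type samples. Other data of the series were not used here.

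Genes with a mean value of at least 10 were tested, 17915 on day 3 and 18055 in the Dnmt1 experiment, with limma 3.58.1 (trend) in R 4.3.3 on log2(value + 1), all groups of an experiment in 1 model and p adjusted by Benjamini and Hochberg over all genes tested. Calls required an adjusted p below 0.05 together with more than 1.5-fold change. The Tet3-CD experiment has 1 sample a group and was described by fold alone. The models were also tried on simulated data, but no outcome is given here and no statement rests on it. Other settings tried were a pseudocount of 0.1 or 5, keeping all genes or those averaging 50 or more, edgeR 4.0.16 and DESeq2 1.42.0 on recovered reads, TMM factors, only the compared groups, no fold threshold, replicate numbers as a block, and each sample left out. Over all genes edgeR called 1821, 86 and 1653 in the 3 day 3 comparisons, and DESeq2 2312, 917 and 2316. Descriptions used Python 3.11.15, numpy 2.4.6, pandas 2.3.3, scipy 1.17.1 and matplotlib 3.10.9, with exon lengths and overlaps from GENCODE vM21 and promoters from RefSeq GRCm38.p6.

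All 10 genes are named in every sample. From other lists (core network, primed network, naive, neural, endoderm, mesoderm and feeder fibroblast genes) at most the 4 called genes with the largest change are named, with the 2 genes most like each of the 10 at most, and *Tet3* as a check of labels. *Dnmt1*, and *Nanog* with the Dnmt1 vector, were named after their values were seen. The 10 genes and the lists were chosen with earlier results of these data known.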

Additional observations from a re-analysis of the deposited data

Results flagged for a closer look

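4 differences between genotypes in the response to the Dnmt1 vector passed the p threshold of a direct test. In *Tet3*-/- against *Tet3*+/+ the log2 difference was 0.61 for *Pou5f1* (limma adjusted p = 2.20e-05), -1.0 for *Fgf5* (limma adjusted p = 0.0112) and -1.12 for *Zic2* (limma adjusted p = 1.32e-06). In *Tet3* m/m against *Tet3*+/+ it was 0.26 for *Lin28a* (limma adjusted p = 0.0367), below the fold threshold.

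3 genes stood out because their genotype groups lay fully apart in both experiments but in opposite directions. In *Tet3* m/m *Lin28a* had a log2 fold change of 0.54 on day 3 and -0.09 with the empty vector of the Dnmt1 experiment, and *Zic2* had -1.15 and 0.37. In *Tet3*-/- *Fgf5* had -0.53 on day 3 and 0.54 with the empty vector. This is a loose criterion with few samples. With the empty vector alone the groups lay apart for 72.3% of all genes in *Tet3* m/m and 77.1% in *Tet3*-/-, and 5.11% and 7.88% of the 17244 genes in both experiments met it in full, beside 2 and 1 of the 10. The difference between the experiments was not tested for these 3 genes, and their causes were not tested.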

How the results depend on the processing

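Of 225 counts of called genes under an alternative, 208 stayed within 1.5 times the reported count and 17 moved. Of 2242 log2 fold changes, 2154 kept their direction and their side of the thresholds, 18 fell short of a threshold they had passed, 29 newly passed one and 41 changed sign. None of those 41 belonged to a called gene, and they came from 20 of the 110 pairs of gene and comparison. The causes were not tested.

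On day 3 the count in *Tet3* m/m against *Tet3*+/+ was 1 with edgeR and 1 with DESeq2, and 0 to 2 with a sample left out. In *Tet3*-/- against *Tet3*+/+ it was 1 with only the compared groups, and 0 to 1 with a sample left out, and between the edited genotypes it was 1 to 5. With no fold threshold the Dnmt1 vector called 4 genes in *Tet3* m/m and 3 in *Tet3*-/-, and its interaction in *Tet3* m/m 1. Of all 18055 genes tested, 1842, 2423 and 236 were called in these comparisons under that setting. With a sample left out the Dnmt1 vector called 0 to 1 in *Tet3*+/+ (0 without the first empty vector sample or Dnmt1 vector replicate 2) and 1 to 3 in *Tet3*-/- (3 without empty vector replicate 2, 2 without Dnmt1 vector replicate 1). Where 1 sample remained in a group it was assumed to vary like the others.

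Signs changed in these uncalled log2 fold changes. *Otx2* in day 3 *Tet3*-/- against *Tet3*+/+ was 0.76 with a pseudocount of 0.1 and 0.33 with replicate numbers as a block. Day 3 samples of the same number had correlated deviations of only -0.098 to 0.082, so the numbers are no evidence of pairing. *Sox2* in day 3 *Tet3* m/m was 0.14 with edgeR and 0.14 with DESeq2, and *Pou3f1* with the Dnmt1 vector in *Tet3* m/m was 0.013 and 0.008.

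With a sample left out on day 3, *Sox2* in *Tet3* m/m ranged from -0.39 to 0.50. Against *Tet3*+/+ in *Tet3*-/- *Pou5f1* ranged from -0.79 to 0.42, *Utf1* from -0.88 to 0.004, *Otx2* from -1.18 to 0.90, *Pou3f1* from -0.49 to 0.96 and *Tdgf1* from -0.24 to 0.74. Between the edited genotypes *Fgf5* ranged from -0.14 to 0.25, *Zic2* from -0.13 to 0.65, *Pou3f1* from -0.95 to 0.50 and *Tdgf1* from -0.72 to 0.26.

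With a sample left out of the Dnmt1 experiment, the Dnmt1 effect ranged from -0.027 to 0.02 for *Sall4* in *Tet3*+/+ (0.004 without the second empty vector sample), from -0.025 to 0.043 for *Sox2* and -0.19 to 0.19 for *Pou3f1* in *Tet3* m/m, and from -1.34 to 0.52 for *Otx2* and -0.27 to 0.12 for *Pou3f1* in *Tet3*-/-. The interaction in *Tet3* m/m ranged from -0.17 to 0.23 for *Fgf5*, -0.26 to 0.036 for *Otx2* (0.023 without the second empty vector wild-type sample) and -0.087 to 0.29 for *Pou3f1*. In *Tet3*-/- it ranged from -0.16 to 0.23 for *Pou3f1* and -0.08 to 0.018 for *Lin28a*. *Otx2* had the lowest values of the 10 genes in the knockout, and whether depth limits it there was not tested.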
